A study of Mus musculus with 4 samples.

Results

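The mouse genome encodes 6 PCGF paralogs, Bmi1, Pcgf1, Pcgf2, Pcgf3, Pcgf5 and Pcgf6, and a pair of RING ligases, Ring1 and Rnf2, that carry them in Polycomb repressive complex 1 (PRC1). The transcripts of these 8 genes were followed here, out of 19938 genes with a named probe set. They were taken by symbol from the probe annotation of the platform, among probe sets that carry 1 symbol. Each had 1 such probe set, so no second probe set of the same gene was there as a check. All 8 were among the 12526 genes that reached a log2 intensity of 6 on their highest array.

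RNA came from colonic epithelium that EDTA had released from C57BL/6 mice of 6 to 8 weeks, with no sorting described, and was read on Affymetrix Mouse Gene 1.0 ST arrays. The DKO array carries the genotype Bmi1ΔIEC Mel18ΔIEC, in which both Bmi1 and Mel18, whose gene symbol is Pcgf2, are stated to be deleted in intestinal epithelial cells. The Bmi1ΔIEC and Mel18ΔIEC arrays carry 1 deletion each, and the WT array carries neither. All mice, WT included, had received azoxymethane (10 mg/kg), a colon carcinogen, and then 3.5% dextran sulfate sodium, which injures the colonic lining, for 5 days, and were taken on day 12, so no untreated colon enters any comparison. The sources used here do not give the promoter that drives the deletion, the exons removed or how many mice stand behind an array. Each genotype had 1 array, so differences between arrays are values without a test or a replicate check.

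PRC1 attaches ubiquitin to histone H2A and keeps developmental genes silent. Every form holds a RING ligase, Ring1 or Rnf2 (also called RING1B), paired with a single PCGF protein, and the PCGF protein decides which other subunits join. Bmi1 and Pcgf2 form canonical PRC1 with CBX and PHC proteins, which bind the methyl mark left by Polycomb repressive complex 2. The other PCGF proteins form variant complexes named after them, PRC1.1, PRC1.3, PRC1.5 and PRC1.6, which hold RYBP or YAF2 in place of those CBX proteins. In the gut, Bmi1 is known from crypt cells that can act as reserve stem cells.

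A few facts of the whole data set touch all values below. DKO stood apart, with 34.5% of genes at least 1.5-fold from WT in either direction, against 3.55% for Bmi1ΔIEC and 3.54% for Mel18ΔIEC. Of 13 leukocyte markers 12 were at least 1.5-fold higher on DKO than on WT, and their summed intensity was 22872 on DKO, 10220 on Bmi1ΔIEC, 3642 on Mel18ΔIEC and 6037 on WT. Of 11 proliferation markers 11 were lower on DKO, with sums of 6287, 14154, 14192 and 17115 in the same array order. Of 10 stromal markers 9 passed 1.5-fold above WT on DKO, with sums of 3789, 2390, 1504 and 1761. The epithelial markers that define the labelled cell type were bright on every array, with sums of 51923, 53642, 54733 and 52133, while Cdx1, a colonic homeobox gene among them, was lower on DKO by a log2 difference of -1.36. The WT array carried seminal vesicle transcripts, a list picked after such values had been seen, with a summed intensity of 16039 over 9 genes against 163 on DKO, 368 on Bmi1ΔIEC and 165 on Mel18ΔIEC, and DKO was therefore also set against the mean of the single deletions.

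Bmi1 and Pcgf2 are the genes that the labels state as deleted, and Pcgf6 is the one of the 8 with the widest range over the arrays. Their promoters, 250 bases before and 50 after the start of the gene in RefSeq (build GRCm38.p6), are printed here because these genes carry the main values. Capitals mark the E-box CACGTG, the site of MYC and MAX family proteins, MAX being a subunit of PRC1.6. The Bmi1 promoter is chr2:18676768-18677067 (plus strand), that of Pcgf2 chr11:97699599-97699898 (minus strand) and that of Pcgf6 chr19:47050857-47051156 (minus strand).
Bmi1: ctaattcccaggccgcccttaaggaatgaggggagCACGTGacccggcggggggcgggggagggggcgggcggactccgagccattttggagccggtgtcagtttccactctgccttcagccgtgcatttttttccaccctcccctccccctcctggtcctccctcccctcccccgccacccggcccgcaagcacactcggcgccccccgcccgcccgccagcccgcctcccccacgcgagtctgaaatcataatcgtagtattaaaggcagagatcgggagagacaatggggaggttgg
Pcgf2: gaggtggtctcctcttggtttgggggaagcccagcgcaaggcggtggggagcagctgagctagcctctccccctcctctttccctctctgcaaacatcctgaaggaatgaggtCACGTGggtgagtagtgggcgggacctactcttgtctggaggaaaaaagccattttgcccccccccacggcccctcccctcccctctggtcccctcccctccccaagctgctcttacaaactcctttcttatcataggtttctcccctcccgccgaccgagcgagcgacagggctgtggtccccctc
Pcgf6: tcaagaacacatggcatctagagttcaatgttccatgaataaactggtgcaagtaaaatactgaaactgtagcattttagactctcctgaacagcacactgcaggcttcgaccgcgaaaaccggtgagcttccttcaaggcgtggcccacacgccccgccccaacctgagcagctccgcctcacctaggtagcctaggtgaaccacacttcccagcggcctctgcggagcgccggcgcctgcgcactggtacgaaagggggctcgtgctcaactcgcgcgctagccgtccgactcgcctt
Counted from the gene's start, the E-box begins at -215 in Bmi1 and at -137 in Pcgf2, and 7.15% of 32851 promoters of this length hold one. Neither the E-box nor the E2F words TTTCCCGC, TTTCGCGC, TTTGCCGC and TTTGGCGC, searched on both strands, occur in the window of Pcgf6, and 2.26% of all promoters hold an E2F word. Of the 7 members with a promoter entry 2 held an E-box and 0 an E2F word.

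Neither deleted gene was clearly lower on the arrays labelled with its deletion. Bmi1 (probe set 10469514) was first found as a gene that cooperates with Myc in mouse lymphoma. It gave log2 intensities of 7.64 on DKO, 7.43 on Bmi1ΔIEC, 6.999 on Mel18ΔIEC and 7.25 on WT. The arrays labelled with its deletion thus read highest. Its difference from WT was 0.40 on DKO and 0.18 on Bmi1ΔIEC, 1.32-fold and 1.14-fold higher, and -0.25 on Mel18ΔIEC. Pcgf2 (probe set 10390458), which encodes the closest relative of Bmi1, read 6.81 on DKO, 6.72 on Bmi1ΔIEC, 6.84 on Mel18ΔIEC and 6.96 on WT. All 3 deletion arrays lay below WT, by -0.15, -0.24 and -0.13 in the same array order, and the lowest was Bmi1ΔIEC, whose label leaves Pcgf2 intact. A probe set can also read exons outside a deletion and RNA of cells in which no deletion took place. Neither was tested, and these values leave the labels unverified. The names DKO, Bmi1ΔIEC, Mel18ΔIEC and WT therefore mean the arrays so labelled.

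Bmi1 and the median of the leukocyte markers had the same order over the 4 arrays, with DKO highest, Bmi1ΔIEC next and Mel18ΔIEC lowest, below WT. Not every marker had this order. On Mel18ΔIEC 10 of the 13 lay below WT and 3 above, which were Cd3e (0.06), Cd3g (0.28) and Cd79a (1.35). The median log2 intensity of the markers was 9.96 on DKO, 8.27 on Bmi1ΔIEC, 7.35 on Mel18ΔIEC and 7.61 on WT. Furthest from WT on DKO were Cybb, the phagocyte oxidase (DKO minus WT 2.45), Ptprc, the pan-leukocyte phosphatase (2.34), and Itgam, an integrin of myeloid cells (2.30). The part of these cells in the reading of Bmi1 was not tested. In a bulk sample fewer cells of a type and less RNA per cell cannot be told apart.

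**Figure D1:**
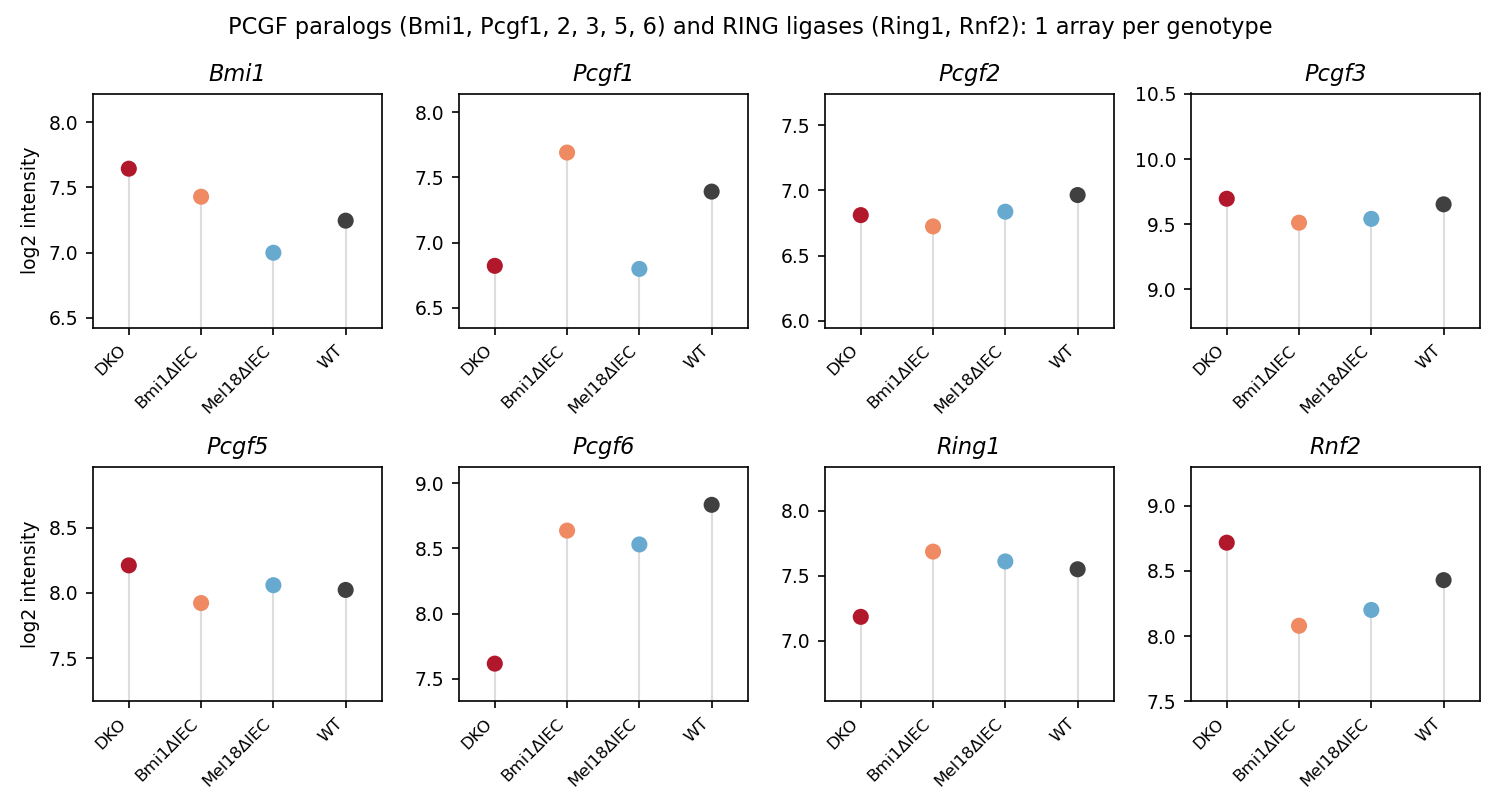
Log2 intensity (vertical axis) of each gene on the 4 arrays, 1 point per array, with every panel spanning the same number of log2 units. Bmi1 is highest on DKO (7.64) and lowest on Mel18ΔIEC (6.999), Pcgf1 is low on both arrays with the Mel18 deletion (6.82 and 6.80), and Pcgf6 is low on DKO alone (7.62).

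Pcgf1 read low on both arrays labelled with the Mel18 deletion. It belongs to PRC1.1, the form that KDM2B brings to unmethylated CpG islands. Pcgf1 (probe set 10539310) read 6.82 on DKO and 6.80 on Mel18ΔIEC, and 7.69 on Bmi1ΔIEC and 7.39 on WT. The readings with the Mel18 deletion lay below both readings without it, which also held for Pcgf6, while those of Pcgf5 lay above. On Mel18ΔIEC it was 1.51-fold lower than on WT (-0.59), just past the threshold of 1.5-fold, and 3.41% of all genes lay at least as far from WT on that array. On DKO the difference from WT was -0.57, or 1.48-fold, just inside the threshold. Between the single deletions Pcgf1 differed most of all members, 1.86-fold higher on Bmi1ΔIEC than on Mel18ΔIEC (0.89), where 2.09% of genes lay as far apart. Among 5 PRC1.1 partners the demethylase gene Kdm2b was the 1 that lay 1.5-fold below WT on DKO (-0.60), and 0 lay above, where 20.2% of all genes lay below and 14.3% above. Kdm2b read 6.44 on DKO, 6.92 on Bmi1ΔIEC, 7.14 on Mel18ΔIEC and 7.04 on WT, so it was not low on both arrays with the Mel18 deletion. Its call was lost after cyclic loess, after median centring, with 32 added to the intensity and with a floor of 8, which drops the gene.

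Pcgf3 and Pcgf5 were the flattest of the variant paralogs. They sit in PRC1.3 and PRC1.5, which in mouse embryonic stem cells start the spread of Polycomb marks over the inactive X chromosome. Pcgf3 (probe set 10524004) read 9.69 on DKO, 9.51 on Bmi1ΔIEC, 9.54 on Mel18ΔIEC and 9.65 on WT, a range of 0.18. Pcgf5 (probe set 10462683) read 8.21 on DKO, 7.92 on Bmi1ΔIEC, 8.06 on Mel18ΔIEC and 8.02 on WT, a range of 0.29. Both were highest on DKO and lowest on Bmi1ΔIEC, and as deposited no difference from WT passed 0.19 in size. That of Pcgf5 on DKO was 0.41 after cyclic loess and 0.33 after median centring. Of the 6 measured partners of these complexes, Dcaf7, an adaptor with WD repeats, was 1.5-fold lower on DKO (-0.61) and 0 were higher, a share of 1 in 6 that does not exceed the 20.2% of all genes. After cyclic loess or median centring Dcaf7 no longer passed and 1 partner was higher.

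Pcgf6 differed most from WT among the 8 genes. It forms PRC1.6 with MGA, MAX, L3MBTL2 and E2F6, a complex that silences germ cell genes in mouse embryonic stem cells. Pcgf6 (probe set 10468275) read 7.62 on DKO, 8.64 on Bmi1ΔIEC, 8.53 on Mel18ΔIEC and 8.83 on WT, which are intensities of 196, 398, 370 and 457. DKO was lowest by a wide gap, and the other 3 arrays lay within 0.30 of each other. DKO lay 2.33-fold below WT (-1.22), and 10.1% of genes differed by as much in either direction and 4.57% in this one. It was 1.96-fold lower than the mean of the single deletions (-0.97). Its differences from WT were -0.20 on Bmi1ΔIEC and -0.30 on Mel18ΔIEC. Over all settings tried, the difference of DKO from WT lay between -1.22 and -1.01.

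Partners of Pcgf6 were lower on DKO along with it. Among 9 PRC1.6 partners 6 lay 1.5-fold or more below WT on DKO and 0 above, with a median of -0.75. The background was 20.2% of all genes below WT and a median over all genes of -0.05. L3mbtl2, which reads histone marks through MBT domains, stood at 6.85 on DKO, 8.18 on Bmi1ΔIEC, 8.21 on Mel18ΔIEC and 8.34 on WT (DKO minus WT -1.49). E2f6, a repressive member of the E2F family, read 7.54, 7.81, 7.78 and 8.395 in that array order (-0.85). It was low on all 3 deletion arrays, unlike Pcgf6, and DKO stood at -0.25 from the mean of the single deletions. Its differences from WT all rest on the 1 WT array, which carried the seminal vesicle transcripts. E2f6 was the partner called on Bmi1ΔIEC (-0.59) and on Mel18ΔIEC (-0.61), where 1.53% and 2.35% of all genes were lower. The heterochromatin protein gene Cbx3 (-0.83) and Wdr5, an adaptor of methyltransferase complexes (-0.78), followed, then the deacetylase gene Hdac2 (-0.75) and Tfdp1, the dimer partner of E2F proteins (-0.71). The DNA-binding subunits Mga (-0.03) and Max (0.13) were close to level. The count of 6 became 5 after median centring and 3 after cyclic loess. Against the mean of the single deletions 2 of the 9 partners were 1.5-fold lower, where 18.8% of all genes were. Several of these genes serve other complexes too, so the list is not particular to PRC1.6.

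**Figure D2:**
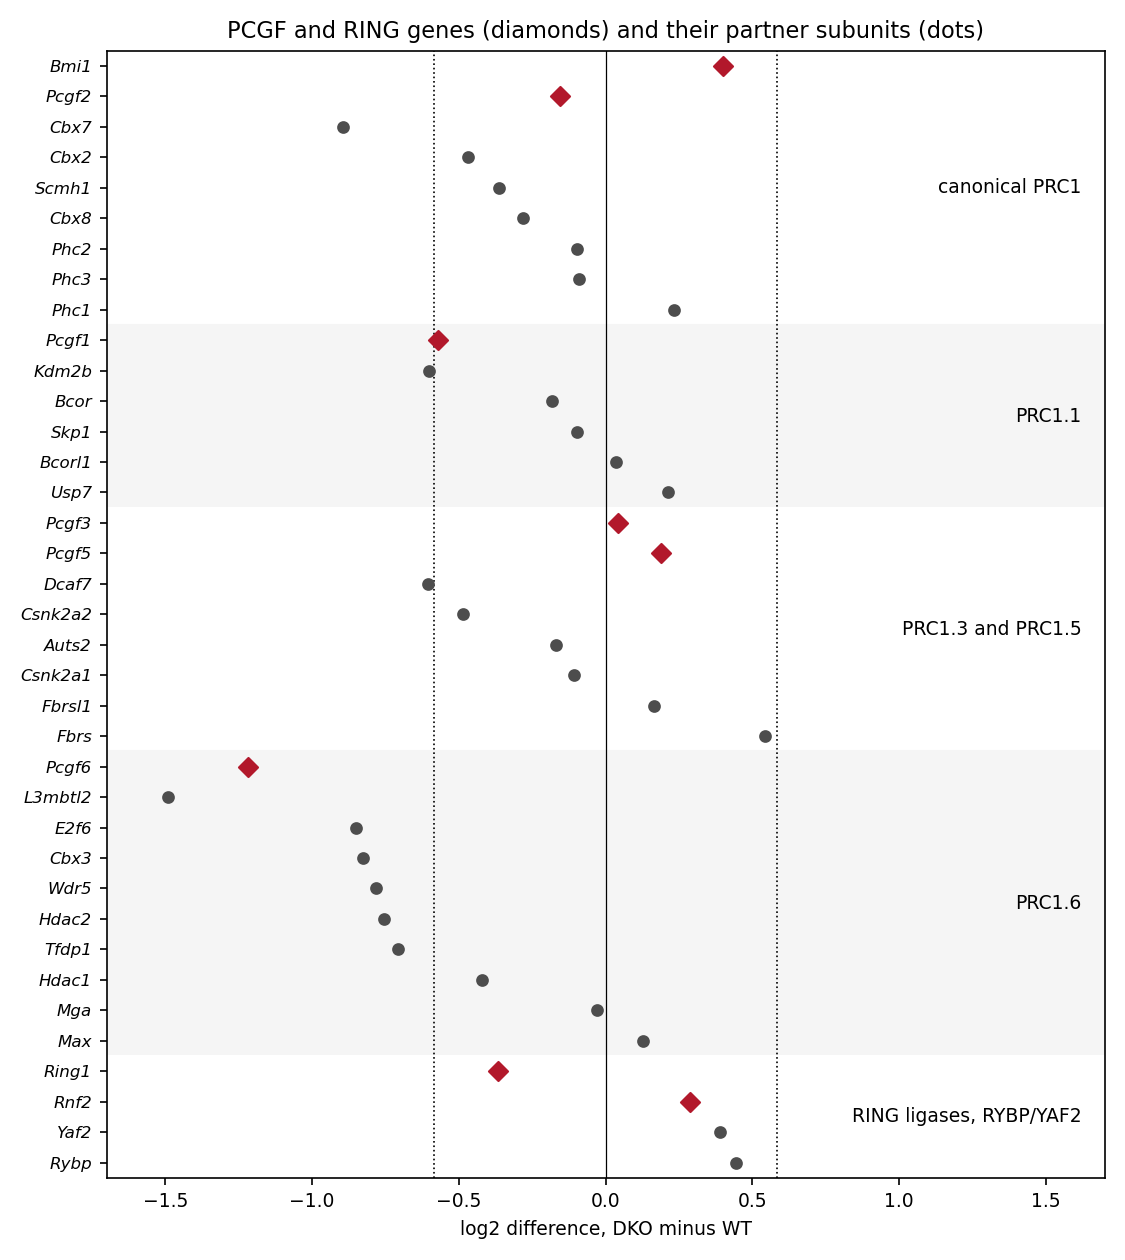
Log2 difference of DKO minus WT (horizontal axis) for the PCGF and RING genes (diamonds) and the partner subunits of each complex (dots), with dotted lines at 1.5-fold. In the PRC1.6 block Pcgf6 (-1.22), L3mbtl2 (-1.49) and 5 more partners lie left of the line, whereas the other blocks hold 1 or 0 genes there.

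The pattern of Pcgf6 over the arrays was shared with many other genes. By the distance between profiles centred on their own mean over the 4 arrays, its nearest genes were the tubulin gene Tubb5 (root mean square distance 0.0097), Gatc, a subunit of the mitochondrial glutamyl-tRNA amidotransferase (0.0232), and the nucleolar kinase gene Nol9 (0.0245). In all, 326 of the 12526 analysed genes lay within a distance of 0.1, so likeness over 4 arrays singles out no gene. The median log2 intensity of the proliferation markers had the same order over the arrays as Pcgf6, at 8.70 on DKO, 10.21 on Bmi1ΔIEC, 10.17 on Mel18ΔIEC and 10.57 on WT. Marker by marker the order of the single deletions varied. Of the 11 markers 6 were higher on Bmi1ΔIEC than on Mel18ΔIEC, as Pcgf6 was, and 5 were lower. Plk1 (-1.99), Aurkb (-1.87) and Birc5 (-1.86), all genes of mitosis, were furthest from WT on DKO. The part of proliferating cells in the values of Pcgf6 and its partners was not tested.

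**Figure D3:**
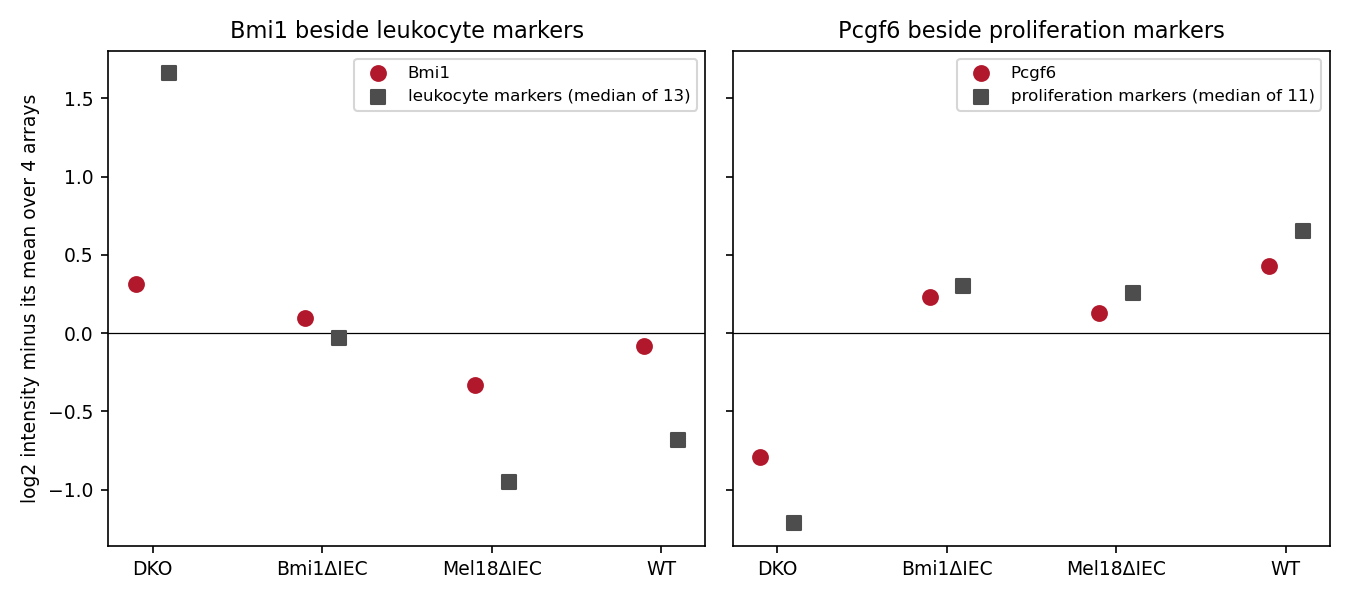
Log2 intensity minus the mean over the 4 arrays (vertical axis) for Bmi1 beside the median of 13 leukocyte markers and for Pcgf6 beside the median of 11 proliferation markers. Gene and marker median run in the same order over the arrays in both panels, and on DKO the median lies further from 0 than the gene does.

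Germ cell genes that PRC1.6 silences in mouse embryonic stem cells stayed dim on all arrays. Of 18 such genes 17 lay under a log2 intensity of 6 on every array, and the median over the 18 was 4.08 on DKO, 3.92 on Bmi1ΔIEC, 3.86 on Mel18ΔIEC and 3.96 on WT. Tdrd1, a piRNA pathway gene, was the one that passed the filter, with 5.75 on DKO, 5.88 on Bmi1ΔIEC, 6.13 on Mel18ΔIEC and 6.11 on WT. With no filter 0 of the 18 were 1.5-fold above WT on DKO and 1 was below (Slc25a31, a germ cell ADP/ATP carrier, -0.79), where 9.99% of all 19938 genes were above and 12.9% below, and signals this near background can hide a difference.

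The RING ligases lay on opposite sides of WT on DKO, neither by 1.5-fold. Ring1 (probe set 10450089) read 7.18 on DKO, 7.69 on Bmi1ΔIEC, 7.61 on Mel18ΔIEC and 7.55 on WT, so DKO was lowest and the rest close together. Rnf2 (probe set 10358698), the main H2A ligase of mouse embryonic stem cells, read 8.72 on DKO, 8.08 on Bmi1ΔIEC, 8.20 on Mel18ΔIEC and 8.43 on WT. DKO was its highest array, and both single deletions lay below WT. On DKO the differences from WT were -0.37 for Ring1 and 0.29 for Rnf2, and from the mean of the single deletions -0.46 and 0.58. None of these passed 1.5-fold as deposited. The last was just inside at 1.49-fold. Of all genes 51.8% lay at least as far from WT on DKO as Ring1, and 60.0% as far as Rnf2. Against the mean of the single deletions these shares were 42.1% and 33.5%. After cyclic loess Ring1 was closer to level, at -0.19 from WT and -0.28 from the single deletions, and Rnf2 further from it, at 0.50 and 0.80. Rybp and Yaf2, whose proteins bind the RING ligases in variant PRC1, were likewise highest on DKO. Rybp was lower than WT on both single deletions (-0.13 on Bmi1ΔIEC and -0.32 on Mel18ΔIEC). Yaf2 was lower on Mel18ΔIEC (-0.25) and level with WT on Bmi1ΔIEC (-0.01). Rybp read 10.28 on DKO, 9.70 on Bmi1ΔIEC, 9.51 on Mel18ΔIEC and 9.83 on WT, and Yaf2 read 8.49, 8.09, 7.85 and 8.10 in that array order. Their differences of DKO from WT were 0.45 and 0.39, and 1 of these 2 genes passed 1.5-fold after cyclic loess or median centring. Under these settings 17.3% and 18.7% of all genes were higher. Against the mean of the single deletions Rybp passed as deposited (0.67), where 14% of all genes were higher, and Yaf2 stood at 0.52.

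Canonical partners of Bmi1 and Pcgf2 were called no more often on DKO than genes in general. Of 7 measured CBX, PHC and SCMH genes 1 lay 1.5-fold below WT on DKO and 0 above, where 20.2% of all genes lay below. Their median of -0.28 became -0.15 after cyclic loess and -0.14 after median centring. The gene called was Cbx7, whose protein binds methylated histone H3 (7.25 on DKO, 8.001 on Bmi1ΔIEC, 7.97 on Mel18ΔIEC and 8.14 on WT, DKO minus WT -0.90). No partner of this group was called on either single deletion. At the classic target locus of Bmi1, Cdkn2a, which encodes a pair of cell cycle inhibitors, read 6.22 on DKO, 6.10 on Bmi1ΔIEC, 5.99 on Mel18ΔIEC and 5.78 on WT. Cdkn2b, the neighbouring inhibitor, read 9.07, 8.45, 8.61 and 8.14, and passed 1.5-fold on DKO against WT (0.93), where 14.3% of all genes were higher. Both inhibitors were higher than WT on all 3 deletion arrays, with Cdkn2a at 0.44 on DKO, 0.32 on Bmi1ΔIEC and 0.21 on Mel18ΔIEC, and Cdkn2b at 0.32 and 0.47 on the single deletions. All 3 differences rest on the same WT array, which carried the seminal vesicle transcripts, and Cdkn2a lay near the floor of 6 throughout. How many of all genes were above WT on all 3 arrays was not counted.

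Counted together, at most 1 of the 8 genes passed 1.5-fold in either direction against WT, where 34.5% of all genes did so on DKO. With 8 members these counts are too small to set the group apart from genes in general. On DKO against WT 1 of 8 was called lower (Pcgf6) and 0 higher, where 20.2% of all genes were lower and 14.3% higher. Their median difference was -0.06, close to the -0.05 over all genes. On Bmi1ΔIEC 0 were called, where 1.53% of genes were lower and 2.02% higher, and on Mel18ΔIEC 1 was lower (Pcgf1), where 2.35% were lower and 1.19% higher. Medians of the members were -0.12 and -0.18 on these arrays, against -0.02 and 0.005 over all genes. Of DKO against the mean of the single deletions 1 was lower (Pcgf6), where 18.8% of genes were lower and 14% higher. Between the single deletions 1 was higher on Bmi1ΔIEC (Pcgf1), where 3.26% were higher and 1.24% lower. Between DKO and Bmi1ΔIEC 3 members were 1.5-fold apart (Pcgf1 -0.87, Pcgf6 -1.02 and Rnf2 0.64), where 32% of all genes were, and between DKO and Mel18ΔIEC 2 (Bmi1 0.65 and Pcgf6 -0.91), where 34.9% were. The root mean square difference over the members was 0.53 between DKO and WT, against 0.77 over all genes, and 0.36 between Bmi1ΔIEC and Mel18ΔIEC, against 0.34.

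The scaling of the arrays bears on these backgrounds. As deposited, 1794 genes were higher and 2524 lower on DKO than on WT, and cyclic loess made this 2167 higher and 1984 lower. Median centring, which moved the median of all genes by 0.14, gave 2342 and 1885. Against the single deletions 1757 were higher and 2358 lower as deposited, which became 2186 and 1719 with cyclic loess and 2207 and 1806 with centring. At a threshold of 2-fold Pcgf6 on DKO against WT was the 1 member called, where 8.19% of genes were lower and 7.33% higher. At 2-fold 0 members were called on Bmi1ΔIEC (0.551% of genes higher and 0.359% lower), on Mel18ΔIEC (0.144% and 0.814%), on DKO against the single deletions (7.33% and 6.51%) and between the single deletions (1.53% and 0.224%). No member changed its side of WT on DKO under any of the settings tried.

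**Figure D4:**
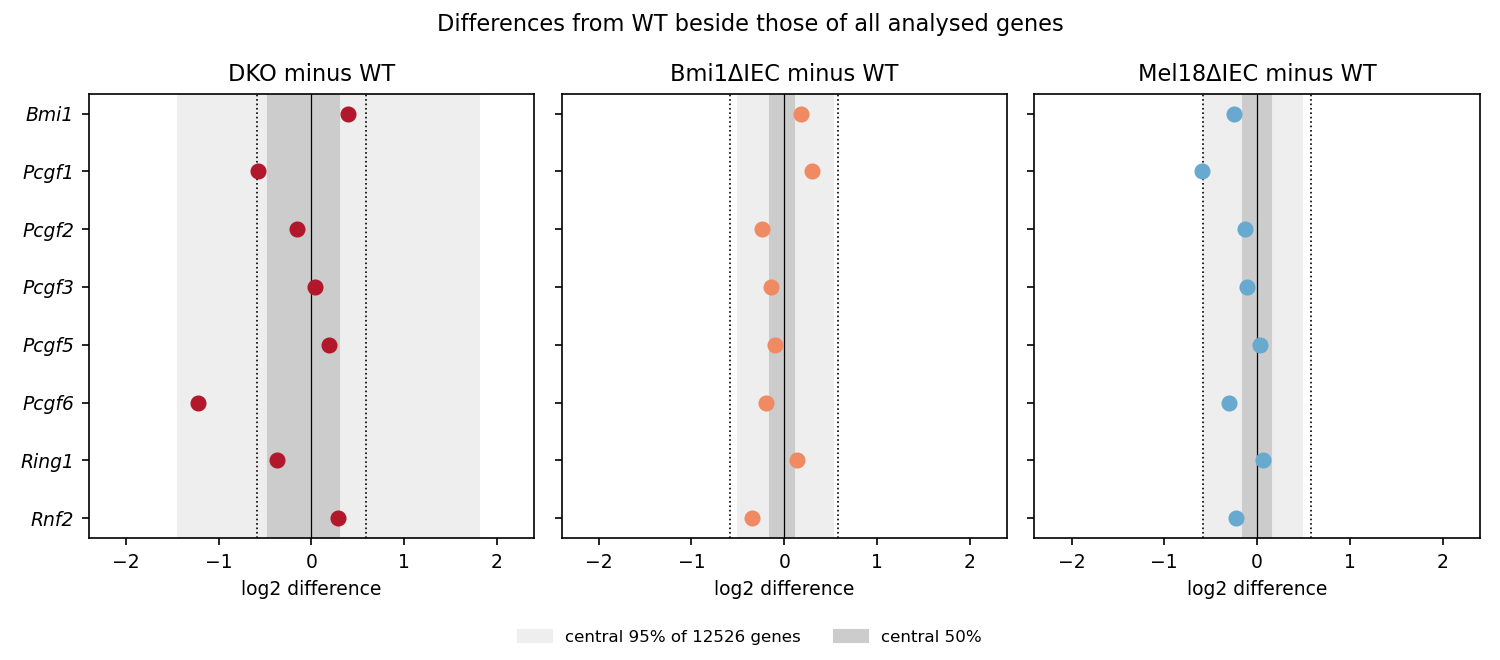
Log2 difference from WT (horizontal axis) of each gene on DKO, Bmi1ΔIEC and Mel18ΔIEC, over the central 95 and 50 percent of 12526 genes (light and dark bands), with dotted lines at 1.5-fold. Pcgf6 on DKO (-1.22) lies inside the light band of that array, and Pcgf1 on Mel18ΔIEC (-0.59) lies just outside the narrower band there.

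The 4 arrays form a layout of 2 by 2, which allows 1 test across genes, of the average change with each deletion when both are taken as additive, which leaves 1 residual degree of freedom. In limma with Benjamini-Hochberg adjustment 0 of 12526 genes had an adjusted p under 0.05 for the average loss of Bmi1 (percent called 0), with 324 at an unadjusted p under 0.05 (2.59% of genes). For the average loss of Mel18 0 were called as well, with 138 at an unadjusted p under 0.05 (1.1% of genes). Pcgf1 gave a log2 change of -0.73 ± 0.23 (SE, 2 arrays against 2) with loss of Mel18, lower in both pairs of arrays (-0.87 with Bmi1 deleted and -0.59 with it intact), with a limma p of 0.034 and an adjusted p of 0.95. Pcgf6 gave -0.66 ± 0.28 with loss of Mel18 and -0.56 ± 0.28 with loss of Bmi1, with limma adjusted p of 0.95 and 0.85. Bmi1 gave 0.41 ± 0.25 with its own loss as labelled, with a limma adjusted p of 0.85, and Pcgf2 gave -0.02 ± 0.22 with the loss of Mel18, with a limma adjusted p of 0.99. No average change of a member passed the adjustment. The residual of this fit is the departure from additivity given below, at least 1.5-fold above for 15.4% of genes and below for 19.1%. The fit counts it as error, so the absence of calls does not show that no gene changed.

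The departure from additivity is the difference of DKO from WT less those of the single deletions. It was at least 1.5-fold for Rnf2 (0.87, above) and Pcgf6 (-0.72, below), 1 member each way, where 15.4% of genes were above and 19.1% below. As deposited 1926 genes were above and 2392 below. Cyclic loess gave 2346 above and 1687 below, and median centring 2308 and 1914. At 2-fold 0 members were called, where 8.19% of genes were above and 6.43% below. For Rnf2 the difference with loss of Mel18 was 0.64 where Bmi1 was deleted and -0.23 where it was intact. For Pcgf6 both differences were negative, -1.02 and -0.30. This value uses each array once and has no error of its own.

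**Figure D5:**
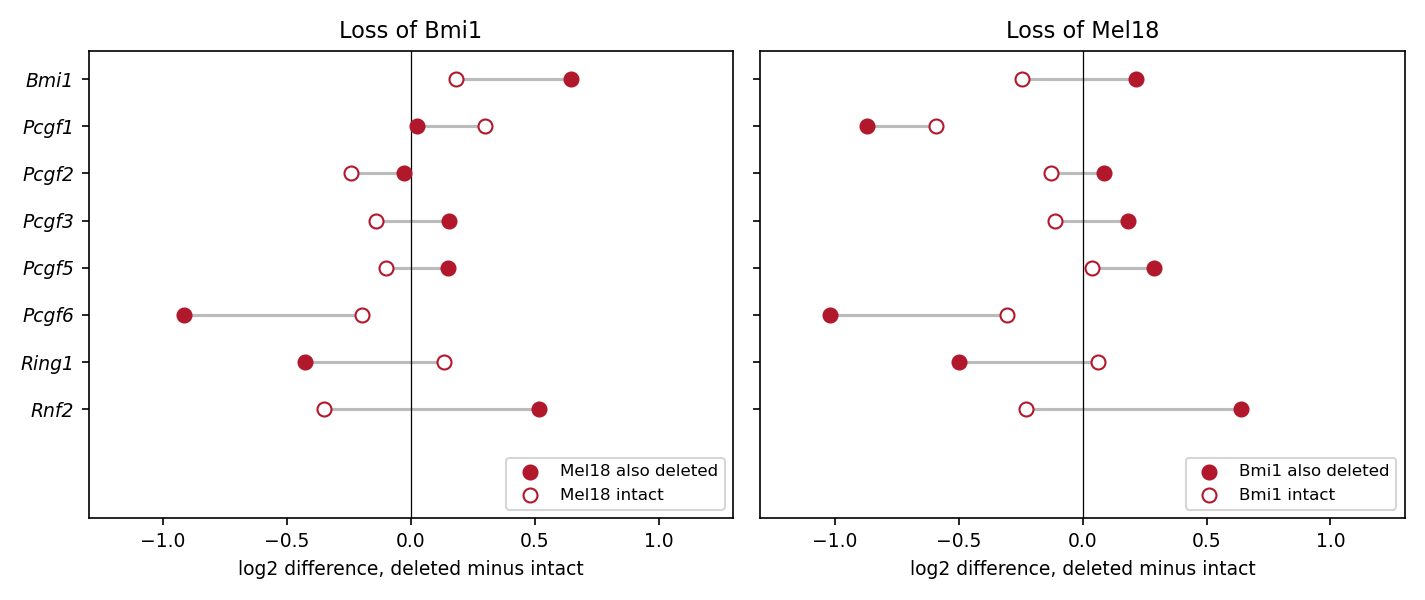
Log2 difference with loss of Bmi1 (left) and with loss of Mel18 (right) for each gene, with the other gene also deleted (filled points) or intact (open points). The points of Rnf2 and Ring1 lie on opposite sides of 0 in both panels, and both points of Pcgf1 lie left of 0 for loss of Mel18.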

How the data were processed

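Per the submitters' processing notes, the authors made the deposited intensities with Affymetrix Expression Console and RMA, which corrects background, normalizes between arrays and summarises the probes of a set. That step takes out shifts common to most genes. The sources used here give no versions. The deposited intensities are on a linear scale (4.7 to 13738 over 35556 probe sets), and log2 was taken first. Arrays give no molecule counts, and having 4 of them limits the precision.

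Probe sets with 1 symbol in the platform annotation (21789) were used, the brightest per gene, and genes reaching a log2 intensity of 6 on the highest of 4 arrays were analysed. Levels are compared between arrays, never between probe sets. A member was called at 1.5-fold. limma 3.58.1 under R 4.3.3 tested the average changes, using lmFit and eBayes with Benjamini-Hochberg adjustment over all genes and a threshold of 0.05. The procedure was tested on simulated data, which held changes with loss of Bmi1 and no departure from additivity. That run therefore does not show how well the fit finds changes in these data. Other steps ran in Python 3.11.15 (pandas 2.3.3, numpy 2.4.6, matplotlib 3.10.9). Alternatives were no filter, a floor of 8, cyclic loess, median centring, 32 added to the intensity, averaging all probe sets of a gene, an intensity trend in eBayes and a threshold of 2-fold. Promoters came from RefSeq (GRCm38.p6).

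The members, partner, target and marker lists, tests and alternatives were chosen with earlier results of these data known. All 8 members were named, from each partner list up to 4 genes at least 1.5-fold from WT with the largest differences, both inhibitors of the Cdkn2a locus, up to 3 markers per list, and the 3 nearest patterns of members with a range of at least 1. Hdac2 and Tfdp1, Mga, Max, Rybp, Yaf2, Tdrd1, Slc25a31, Cd3e, Cd3g, Cd79a, the deubiquitinases and their cofactors, and Cotl1 were named after their values were seen.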

Additional observations from a re-analysis of the deposited data

Results flagged for a closer look

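For 6 of the 8 genes the difference with a deletion had opposite signs depending on whether the other gene was deleted or intact, as it did for 64.6% of all 12526 genes. By deletion these were 4 of 8 with loss of Bmi1 (43.8% of all genes) and 5 of 8 with loss of Mel18 (49.6%). None of these was tested, since each difference rests on 2 arrays. The difference between the 2 differences is the departure from additivity, 1 value per gene. It was 0.87 for Rnf2, with 0.52 (Mel18 deleted) and -0.35 (Mel18 intact) for loss of Bmi1, and 0.64 (Bmi1 deleted) and -0.23 (Bmi1 intact) for loss of Mel18. It was -0.56 for Ring1, with -0.43 and 0.14 for loss of Bmi1 and -0.50 and 0.06 for loss of Mel18. Bmi1 gave 0.46 with loss of Mel18 (0.22 with Bmi1 deleted and -0.25 with it intact). Pcgf3 gave 0.30 for either loss and Pcgf5 0.25 for loss of Bmi1. Pcgf2 gave 0.21 with loss of Mel18 (0.09 and -0.13).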

How the results depend on the processing

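No paired analysis was possible because each genotype had 1 array, and no replicate could be left out. The call of Pcgf1 on Mel18ΔIEC against WT was lost with a floor of 8, which drops the gene, with log2 of the intensity plus 32 and at 2-fold (0 members lower under each, in place of 1). Of DKO against the single deletions, 2 members were higher after cyclic loess and 1 after median centring, in place of 0, and 0 were lower at 2-fold, in place of 1. Pcgf1 between the single deletions was lost with the floor of 8 and at 2-fold (0 in place of 1). For the departure from additivity 2 members were above after cyclic loess and 0 at 2-fold, in place of 1, and 0 were below under either. Pcgf6 on DKO against WT kept its call under every setting tried. With 0.135 per array as the error (from the closest pair of arrays), combined over the arrays a comparison uses, 7 single differences moved by more than that error, all after cyclic loess. Departures, which combine 4 arrays, have the widest error, and no called difference changed sign. No limma call appeared under any setting. Dim genes such as the germ cell list are limited by signal over background.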

Other observations

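Enzymes that remove ubiquitin from histone H2A act against PRC1. The 6 genes measured here encode such enzymes or, for Asxl1 and Asxl2, cofactors of BAP1. Of these 6 genes 0 were 1.5-fold apart from WT on any deletion array, where 34.5% of all genes were so on DKO. Bap1, the catalytic subunit of the Polycomb deubiquitinase, read 8.54 on DKO, 9.04 on Bmi1ΔIEC, 8.98 on Mel18ΔIEC and 9.01 on WT (DKO minus WT -0.48). Mysm1, a deubiquitinase known from blood cell formation, read 7.86 on DKO, 7.33 on Bmi1ΔIEC, 7.14 on Mel18ΔIEC and 7.48 on WT. DKO was highest and Mel18ΔIEC lowest, as for the median of the leukocyte markers. Unlike Mysm1, that median was higher on Bmi1ΔIEC (8.27) than on WT (7.61). Against the mean of the single deletions Mysm1 was the 1 of 6 that passed 1.5-fold on DKO (0.63), where 14% of all genes were higher, and its departure from additivity was 0.88. The gene nearest to Bmi1 in pattern over the 4 arrays was Cotl1, which encodes an actin-binding protein (8.49 on DKO, 8.28 on Bmi1ΔIEC, 7.84 on Mel18ΔIEC and 8.10 on WT), with 186 genes within a root mean square distance of 0.1.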
